A study of Mus musculus with 6 samples.

Results

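The interleukin-1 (IL-1) family is a group of cytokines, of the receptors that bind them and of the proteins that hold them in check. The members described are 10 of the 20284 genes that could be named on the arrays. They are the ligand genes Il1a, Il1b, Il18, Il33, Il1f6 (also called Il36a) and Il1f9 (also called Il36g), the receptor genes Il1r1 and Il1rl1, the antagonist gene Il1rn and the decoy receptor gene Il1r2. They were chosen by family with their signals on these same 6 arrays, and the ratios between them, already known. Their values are therefore a description, with no test.

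BHPF (fluorene-9-bisphenol) is a bisphenol used in place of bisphenol A. Immature female mice of the CD-1 strain, with a labelled age of 24 days, were given BHPF or its vehicle alone, peanut oil, by the intragastric route. Dosing was daily for 3 days, at 50 mg/kg body weight per day in the BHPF groups and 0 in the control groups. The 6 groups were the liver, the ovary and the uterus of control mice and of BHPF mice, each with 1 one-colour array of RNA pooled from 3 mice. The comparisons ask how BHPF changes gene expression in each tissue, and without a repeat of any group the spread between pools was not measured and no replicate check was possible.

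IL-1α and IL-1β, the products of Il1a and Il1b, signal through the receptor that Il1r1 encodes, with a shared accessory chain, and switch on inflammatory genes through NF-kB. Neutrophils, monocytes and tissue macrophages are known sources of IL-1β, whereas IL-33 and IL-36 cytokines are known mainly from endothelial, stromal and epithelial barrier cells. In the reproductive tract the family is known for roles in ovulation, implantation and the defence of the epithelium.

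A level below is the log2 intensity of a probe minus the 75th percentile of its array, so that 0 is the brightness at that percentile. That percentile was an intensity of 3443 for control liver and 3292 for BHPF liver, 7500 and 6389 in the ovary, and 5335 and 4530 in the uterus. Of the 55681 probes, 63.9% were well above background in control liver and 61.3% in BHPF liver, with 74.5% and 69.3% in the ovary, and 68.9% and 64.7% in the uterus. A log2 ratio is the BHPF level minus the control level of the same tissue. Its SD comes from the noise between spots of a probe, with a typical value of 0.14, and leaves out the variation between pools.

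The arrays stood apart from their labels and from each other in 3 ways. In the authors' own table of log2 values the column headed control uterus held what the scanner file labelled BHPF uterus gives, and the column headed BHPF uterus what the control file gives. The uterine ratios below keep the condition under which each scanner file was deposited, and they turn sign with that table's columns as headed. Hepatocyte genes were higher on the BHPF uterus array, in 11 of 11 probes, with a median log2 ratio of 4.28 and a summed signal that went from 2.41 to 37.98 times the array's 75th percentile. The brightest hepatocyte gene was Ahsg on the control and Alb on the BHPF uterus array, and no hepatocyte gene lacked a signal well above background. The control arrays lay in one row of the slide and the BHPF arrays in the other, so treatment and place on the slide cannot be told apart.

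The 10 genes had 12 probes, 1 for each gene and 3 for Il1rl1. In the liver 8 of the 12 were evaluated, that is, well above background on at least 1 array of the tissue. There 2 member probes were at least 2-fold lower with BHPF and 0 at least 2-fold higher, beside 1.07% lower and 6.02% higher among all 36578 evaluated probes. The median log2 ratio of the 8 was -0.50, against 0.06 over all evaluated liver probes. In the ovary 7 were evaluated, with 1 lower and 0 higher, beside 0.593% lower and 0.681% higher among 41674 probes, and medians of -0.24 for the members and 0.00 for all. In the uterus 8 were evaluated, with 2 lower and 0 higher, beside 0.773% lower and 1.88% higher among 38802 probes, and a median of 0.01 for both. Nothing is read from these shares, because the members were chosen with these ratios known.

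The lower probes were those of Il1b and Il1r2 in the liver, Il1b in the ovary, and Il1f6 and Il1r2 in the uterus. In bulk tissue, fewer cells of a type and less RNA per cell cannot be told apart, for these and for every ratio below. Where the scale was set by the 50th percentile in place of the 75th, the median ratio of all liver probes went from 0.06 to -0.22 and that of the member probes to -0.82.

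**Figure D1:**
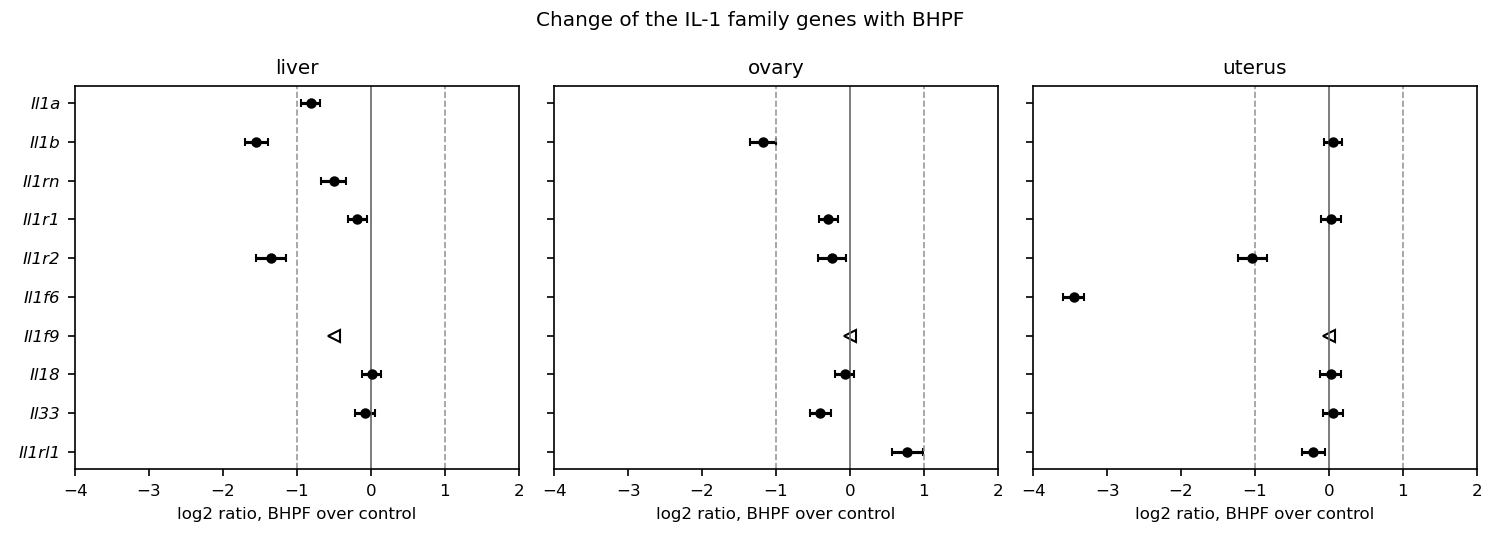
Log2 ratio of BHPF over control for each member in each tissue, with bars of 1 SD from the noise between spots, 1 array per group. Dashed lines mark 2-fold, triangles mark bounds for a probe not well above background on the BHPF array (a triangle at 0 stands for no fold), and no point is drawn where neither array was well above background. Il1b in the liver and ovary, Il1r2 in the liver and uterus, and Il1f6 in the uterus lie past 2-fold on the lower side.

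Among the ligands, Il1b encodes IL-1β, which is made as a precursor and cut to its active form. Its level in the liver was 1.54 with control and -0.01 with BHPF. In the ovary it was -2.80 with control and -3.97 with BHPF, and in the uterus -3.40 and -3.35. All 6 arrays were well above background, with the control liver highest, the BHPF liver next and the BHPF ovary lowest. The log2 ratio was -1.55 in the liver (SD 0.16), which is 2.93-fold lower with BHPF, and -1.18 in the ovary (SD 0.17), which is 2.26-fold lower. In the uterus it was 0.05 (SD 0.12), within the noise between spots. It was -1.44 there with a liver share of 6.36% taken off the BHPF array, an alternative chosen after seeing the data and described below. After the normexp background correction the ovary value was -0.97, short of 2-fold, and with the 50th percentile the liver value was -1.86. Its probe lay at 10 spots of each array, where every other member probe lay at 1, and 9 of those spots were kept on each uterus array.

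Liver Il1b stood far above the other tissues, by 20.3-fold over the ovary and 30.8-fold over the uterus on the control arrays. On the BHPF arrays these folds were 15.6 and 10.1. The uterine level was below the ovarian one by a log2 difference of -0.60 on the control arrays and above it by 0.62 on the BHPF arrays. The values 10.1 and 0.62 come from the uterus array on which hepatocyte genes were higher. The part of liver RNA in them was not tested. An alternative chosen after seeing the data and described below took a liver share of 6.36% off that array. It gave a fold of liver over uterus of 28.6, with the uterine level below the ovarian one by -0.87. That share is the median over hepatocyte probes, and for Il1rap it was 0.293%. Both values depend on the share taken.

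Il1a encodes IL-1α, which is active without processing and acts as an alarm signal when cells die. Its level in the liver was -0.40 with control and -1.22 with BHPF. The ovary arrays read -6.54 for control and -7.93 for BHPF, and the uterus arrays -7.69 and -7.24, none of them well above background. Il1a was therefore measured in the liver alone, where the log2 ratio was -0.82 (SD 0.13), or 1.76-fold lower, short of 2-fold. With the 50th percentile it was -1.13 and passed 2-fold. On the control arrays the liver was at least 60.9-fold above the ovary and at least 42.3-fold above the uterus. On the BHPF arrays the bounds were 23.0-fold and 14.4-fold.

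Il18 encodes IL-18, which inflammasomes activate and which drives interferon-γ production. The level of Il18 was 1.63 in control and 1.64 in BHPF liver, -0.92 and -0.99 in the ovary, and -0.87 and -0.85 in the uterus. The liver pair stood highest and the other 4 arrays lay close together. The log2 ratios were 0.01 in the liver, -0.07 in the ovary and 0.03 in the uterus, each smaller than its SD of 0.13, 0.12 and 0.14. Control liver was 5.83-fold above control ovary and 5.66-fold above control uterus. The liver ratio was -0.30 with the 50th percentile. The uterine ratio was -0.61 with a liver share of 6.36% taken off the BHPF uterus array. That alternative was chosen after seeing the data and is described below.

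Il33 encodes IL-33, a nuclear cytokine that is released on damage and binds the receptor ST2. Il33 had a level of -0.86 in control and -0.94 in BHPF liver, -2.70 and -3.10 in the ovary, and -0.65 and -0.60 in the uterus. The uterus and liver arrays were high and near each other, and both ovary arrays were low. The log2 ratio was -0.08 (SD 0.13) in the liver, -0.40 (SD 0.14) in the ovary and 0.05 (SD 0.14) in the uterus, so that the ovarian difference alone exceeded the noise between spots. Control uterus was 4.14-fold above control ovary, and BHPF uterus 5.66-fold above BHPF ovary. In the liver the ratio was -0.39 with the 50th percentile and -0.37 after normexp, which gave -0.59 in the ovary.

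Il1f6 encodes IL-36α, a cytokine of epithelia. Its level was -0.36 on the control uterus array and -3.81 on the BHPF uterus array. Control and BHPF liver read -7.91 and -6.95 and control and BHPF ovary -7.66 and -7.81, none of them well above background. Among the 10 genes it had the largest ratio, -3.45 in the uterus (SD 0.14), or 10.95-fold lower with BHPF. With the columns of the authors' table as headed the sign turned, to 3.45. It was past 2-fold on the lower side in every alternative run on the scanner files, from -3.53 with the 50th percentile to -2.90 after normexp. On the control arrays the uterus was at least 38.3-fold above the liver and at least 62.6-fold above the ovary, and on the BHPF arrays at least 2.14-fold and 3.80-fold.

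Il1f9 encodes IL-36γ, another epithelial cytokine of the IL-36 branch. Its level was -4.40 in control liver, -5.89 in control ovary and -5.09 in control uterus, each well above background but near the limit. The BHPF arrays read -5.67 in the liver, -6.59 in the ovary and -6.17 in the uterus, none of them well above background. The probe was thus above background on the control array of each tissue and on none of the BHPF arrays. The limit itself was higher on the BHPF arrays, where the lowest intensity well above background was 110 in the liver, 120 in the ovary and 135 in the uterus, beside 70.0, 93.3 and 95.6 on the control arrays. Il1f9 was at least 1.42-fold lower with BHPF in the liver, and the bound gave no fold in the ovary or the uterus. If 1 kept spot sufficed to place a probe of several spots above background, the limits were lower and the uterine bound was -1.09, past 2-fold. That alternative was chosen after seeing the data. With its own signals in place of bounds, Il1f9 was at -1.27 in the liver, -0.70 in the ovary and -1.09 in the uterus.

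**Figure D2:**
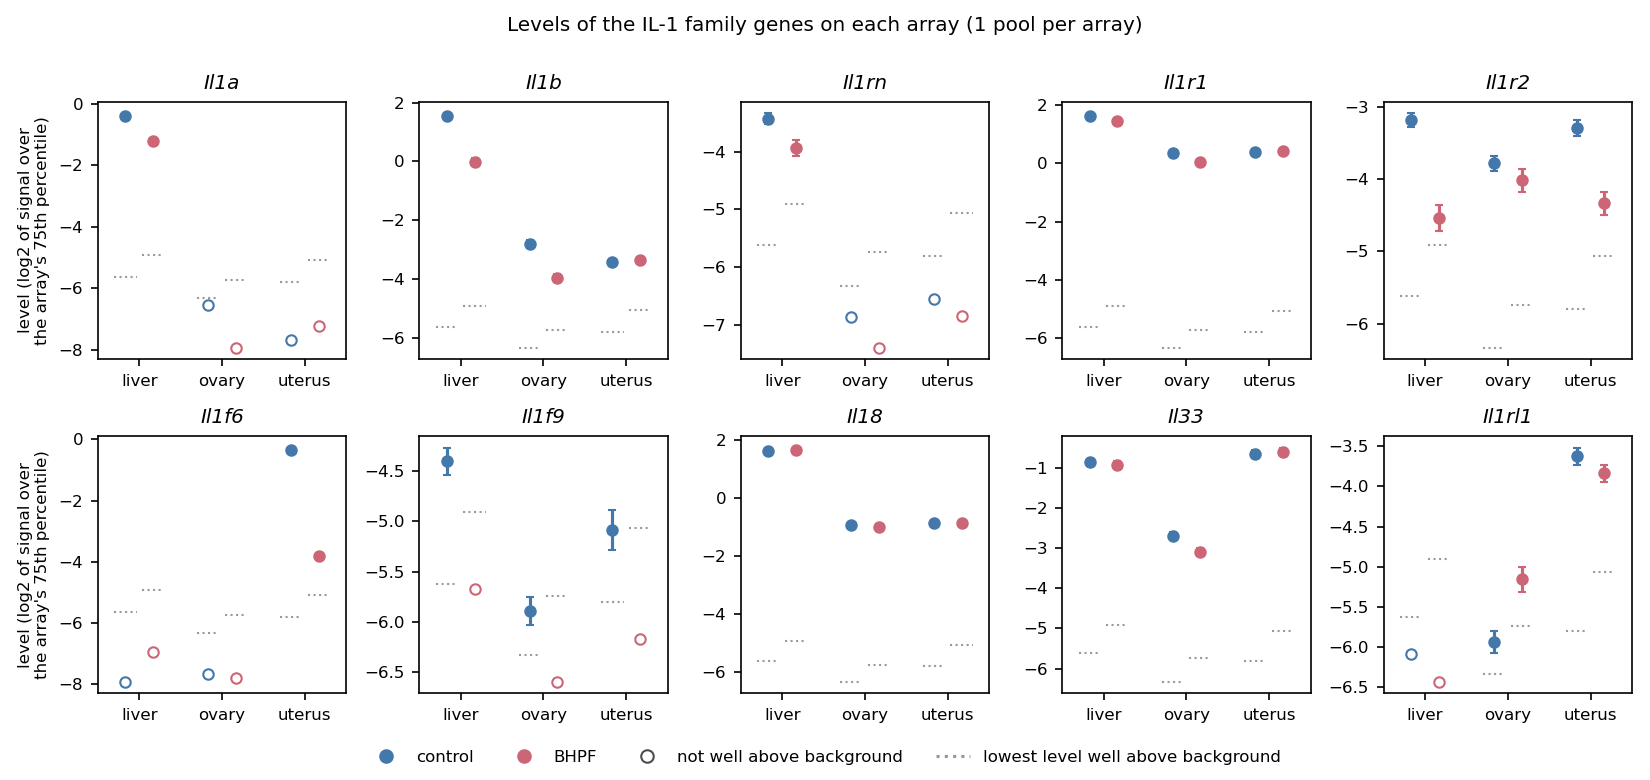
Level of each member on each array, as log2 of the signal over the 75th percentile of the array, 1 pool per array, with bars of 1 spot SD. Open circles were not well above background, and dotted lines give the lowest level well above background on that array. For Il1rl1 the brightest of its 3 probes is drawn. Axes differ between panels.

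Of the receptors, Il1r1 encodes the signalling receptor of IL-1α and IL-1β. The level of Il1r1 was 1.64 in control and 1.45 in BHPF liver, 0.34 and 0.05 in the ovary, and 0.40 and 0.43 in the uterus. It was well above background on all 6 arrays and highest in the liver. The log2 ratio was -0.18 (SD 0.13) in the liver, -0.29 (SD 0.13) in the ovary and 0.03 (SD 0.13) in the uterus. Control ovary, control uterus and BHPF uterus differed by less than that noise. Control liver was 2.46-fold above control ovary and 2.37-fold above control uterus. The liver ratio was -0.50 with the 50th percentile, and after normexp the uterine ratio turned to -0.20.

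Il1rl1 encodes ST2, the receptor of IL-33, which mast cells and type-2 innate lymphoid cells carry. Of its 3 probes, 2 were not well above background on any array. The log2 ratios of their own signals were 0.85 and 1.12 in the liver, 0.76 and 0.94 in the ovary, and 0.78 and 0.73 in the uterus. The third read -6.08 in control and -6.43 in BHPF liver, not well above background. Its level was -5.94 in control and -5.16 in BHPF ovary, and -3.63 and -3.84 in the uterus. The ovary levels were near the lowest level well above background, -6.33 on the control and -5.74 on the BHPF ovary array. The uterus arrays were the highest, and the BHPF ovary array lay above the control ovary array. The log2 ratio was 0.78 (SD 0.21) in the ovary, 1.72-fold higher and short of 2-fold, and -0.21 (SD 0.15) in the uterus. Under normexp the uterine value changed sign, to 0.11, and the ovarian one was 0.48. Control uterus was 4.96-fold above control ovary, and BHPF uterus 2.50-fold above BHPF ovary.

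The antagonist and the decoy hold IL-1 in check by different means. Il1rn encodes the IL-1 receptor antagonist, which occupies the receptor without signalling. Il1rn had a level of -3.43 in control and -3.93 in BHPF liver. The ovary arrays read -6.86 and -7.39 and the uterus arrays -6.55 and -6.84, none of them well above background. Il1rn was measured in the liver alone, as Il1a was, with a log2 ratio of -0.50 (SD 0.17). The ratio was -0.81 with the 50th percentile and -0.84 after quantile normalization, and -0.33 after normexp. Control liver was at least 7.46-fold above control ovary and at least 5.18-fold above control uterus.

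Il1r2 encodes the decoy receptor, which binds IL-1 without passing on a signal. Il1r2 had a level of -3.19 in control and -4.54 in BHPF liver, -3.78 and -4.02 in the ovary, and -3.30 and -4.34 in the uterus. The control liver and control uterus arrays were the highest and close together, and the BHPF liver and BHPF uterus arrays the lowest. The log2 ratio was -1.35 (SD 0.20) in the liver, or 2.55-fold lower, -0.24 (SD 0.19) in the ovary, and -1.04 (SD 0.19) in the uterus, or 2.05-fold lower. After normexp neither passed 2-fold, with -0.83 in the liver and -0.63 in the uterus, while the liver value was -1.67 with the 50th percentile and -1.70 after quantile normalization. With the columns of the authors' table as headed the uterine value turned to 1.04. No pair of control tissues differed by 2-fold in Il1r2, the largest gap being 1.51-fold between liver and ovary.

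Some neutrophil markers were at least 2-fold lower in each tissue. Of the 14 genes on that list 13 had a probe, and 10 of 14 evaluated probes were at least 2-fold lower in the liver, 7 of 13 in the ovary and 5 of 14 in the uterus, where 5 others had ratios above 0. Their summed signal, with 1 mean over probes for each gene and in units of the array's 75th percentile, went from 59.3 to 25.8 in the liver, from 14.5 to 11.8 in the ovary and from 32.4 to 29.7 in the uterus. Csf3r was the brightest on all 6 arrays, with ratios of -0.15, -0.01 and 0.03 in liver, ovary and uterus. It made up 32.7% of the sum on the control and 67.7% on the BHPF liver array. These shares were 76.7% and 93.6% in the ovary, and 43.9% and 49.0% in the uterus. The sums therefore reflect in large part a gene that hardly changed. The marker not well above background was Mpo, in the ovary. The list's median ratio was -2.40 in the liver, -1.13 in the ovary and -0.50 in the uterus.

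Some macrophage markers were lower as well in the liver and the ovary. Of 14 evaluated probes, from 11 of the 12 listed genes, 4 were at least 2-fold lower in the liver and 3 in the ovary, and 2 were higher in the uterus. The summed signal went from 58.1 to 43.8 in the liver, from 16.0 to 9.99 in the ovary and from 18.5 to 17.3 in the uterus, with medians of -0.53, -0.35 and -0.03. By the mean over the probes of a gene, Marco was the brightest of them on the control liver array and Lyz2 on the control ovary and uterus arrays, and 0 of these genes lacked a signal well above background. The higher pair in the uterus was Clec4f at 1.21 and Vsig4 at 1.04. Their levels were -2.57 and -4.24 on the BHPF uterus array, on which hepatocyte genes were higher too. On the BHPF liver array they were 3.73 and 3.08. The part of liver RNA in the higher pair was not tested. The part of neutrophils and macrophages in the lower Il1b and Il1r2 was not tested.

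Beside the lower Il1f6 in the uterus, 3 of 16 probes of stratified epithelium markers were at least 2-fold lower. They were Serpinb5, by a bound of -2.20, Trp63 at -1.29 and Sfn at -1.02. The brightest of the 15 genes was Trp63, through another of its probes, which had a ratio of 0.03. That probe had a level of 4.08 on the control uterus array and 4.68 on the control liver array. Dsg3, Krt16 and Krt6a were not well above background. The summed signal in the uterus went from 13.5 to 13.9, and Trp63 made up 63.3% and 62.5% of it. The list's median was -0.01 in the uterus, 0.00 in the ovary and 0.18 in the liver. In the ovary 1 of 13 probes was lower and in the liver 0 of 10. The part of the stratified epithelium in the lower Il1f6 was not tested. Simple epithelium markers had 0 probes past 2-fold in the uterus, with a median of 0.08.

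Of the mast cell markers, which mark cells that carry the product of Il1rl1, some were at least 2-fold higher in the uterus and the liver. In the uterus 3 of 6 probes were at least 2-fold higher, with a summed signal from 1.03 to 2.01 and a median of 1.05, while Il1rl1 was at -0.21. Cma1 was the brightest there by that mean and Ms4a2 was not well above background. In the liver 2 of 4 were higher, with a sum from 0.263 to 0.649 and a median of 0.98. Tpsb2 was the brightest there by the same mean, and Cpa3, Mcpt4 and Ms4a2 were not well above background. In the ovary 0 of 5 passed 2-fold, with a median of 0.20, while Il1rl1 was at 0.78, from levels near the background limit. T cell and innate lymphoid cell markers had 0 of 10 past 2-fold in each tissue, with medians of 0.20 in the liver, -0.08 in the ovary and 0.42 in the uterus. The part of these cells in the Il1rl1 values was not tested.

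Some adipocyte markers passed 2-fold in the ovary and in the uterus. In the ovary 2 of 7 probes were at least 2-fold higher, with a summed signal from 3.17 to 3.39 and a median of 0.06, and Lep was not well above background. In the uterus 2 of 6 were lower, with a sum from 2.62 to 1.06 and a median of -0.87, and Lep and Plin1 were not well above background. By the mean over probes Fabp4 was the brightest in both tissues. Their part in the member values was not tested.

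On the BHPF uterus array the rise of each hepatocyte probe amounted to between 1.81% and 17.9% of its signal on the BHPF liver array, with a median of 6.36% over 11 probes. For Il1rap, the accessory chain of the IL-1 receptor and itself bright in the liver, the rise was 0.293%. An alternative chosen after seeing the data took the median share of the BHPF liver signal off the BHPF uterus array, although the share differed widely among probes. The uterine ratio of Il1b then went from 0.05 to -1.44, past 2-fold, that of Il18 from 0.03 to -0.61 and that of Il1r1 from 0.03 to -0.17. Il1f6 was at -3.46, Il1r2 at -1.12, Il1rl1 at -0.23 and Il33 at -0.02. The part of liver RNA in the uterine member values was not tested.

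**Figure D3:**
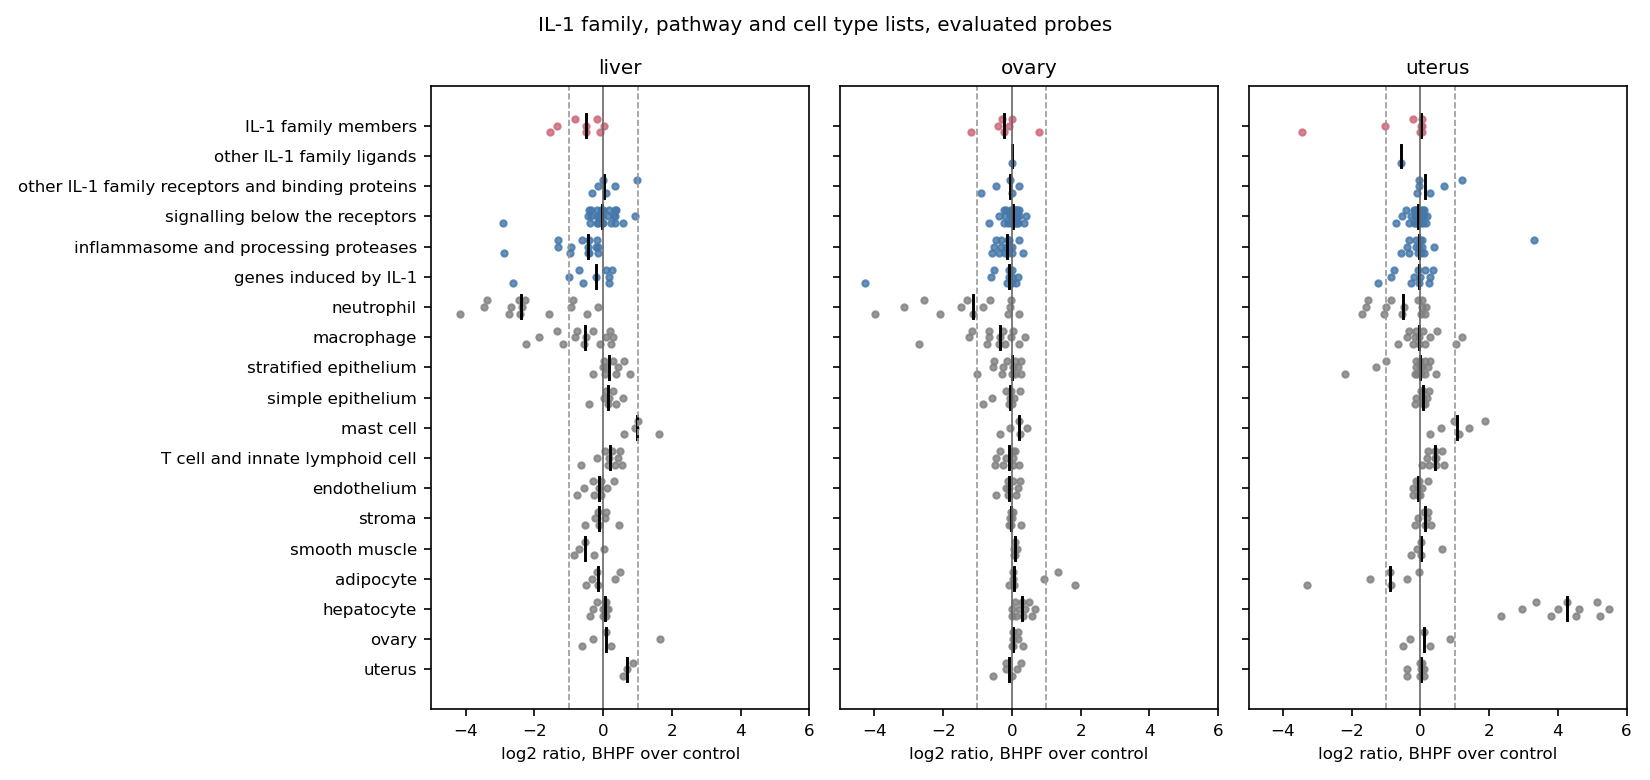
Log2 ratio of BHPF over control for the evaluated probes of the IL-1 family members, the other genes of the pathway and the cell type markers, 1 array per group. Each point is a probe, the upright bar is the list's median and dashed lines mark 2-fold. The neutrophil list has the lowest median in the liver and ovary, and the hepatocyte list the highest in the uterus.

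Around the members, the other ligand genes of the family were Il1f5, Il1f8 and Il1f10. Of these 3, 0 were evaluated in the liver, Il1f10 in the ovary, where the bound gave no fold, and Il1f8 in the uterus. Il1f8, the gene of IL-36β, had a uterine level of -0.90 on the control and -1.45 on the BHPF array and a log2 ratio of -0.56, on the same side as Il1f6.

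The list of other receptors and binding proteins held 8 genes, and 0 of 6 evaluated probes in the liver and 0 of 5 in the ovary passed 2-fold. In the uterus 1 of 6 did: Il1rl2, the receptor of the IL-36 cytokines, had levels of -4.93 and -3.71 and was 2.32-fold higher with BHPF, with a log2 ratio of 1.22. In the liver Il1rl2 had the largest rise too, by a bound of 0.98, and Il18bp, which binds IL-18, the largest fall, at -0.31. In the ovary Il18r1 was lowest at -0.90 and Il1rap highest at 0.20. Il18bp was lowest in the uterus at -0.10. The medians were 0.04 in the liver, -0.05 in the ovary and 0.12 in the uterus, and Il18rap, Il1rapl1 and Il1rapl2 were not well above background in any tissue.

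Signalling genes below the receptors, 16 genes with 26 evaluated probes, had medians of -0.04 in the liver, 0.03 in the ovary and -0.08 in the uterus. In the liver 1 of 26 passed 2-fold: Irak3, which encodes a kinase-like brake on IL-1 receptor signalling, went from -0.89 to -3.80 and was 7.52-fold lower. Irak3 was also lowest in the ovary, at -0.67, and was at 0.11 in the uterus. The largest rises were Irak2 at 0.94 in the liver, Nfkb1 at 0.41 in the ovary and Tab2 at 0.20 in the uterus. Irak4 had the largest fall in the uterus, by a bound of -0.72. The other probe of each gene differed: Irak2 was at 0.33 in the liver, Nfkb1 at -0.01 in the ovary and Irak4 at -0.41 in the uterus. Tab2 had no other probe. In the ovary and the uterus 0 of 26 passed 2-fold.

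The inflammasome genes and the proteases that cut IL-1 cytokines were 13 genes. In the liver all 14 evaluated probes had ratios below 0, with a median of -0.45, and 3 were at least 2-fold lower. These were Ctsg, a neutrophil and mast cell protease, by a bound of -2.88, Prtn3, another neutrophil protease, at -1.32, and Mefv, which encodes pyrin, at -1.31. The other probe of Mefv was at -0.92, short of 2-fold. Ctss was nearest to 0, at -0.15, and Nlrp3 was not well above background. In the ovary 0 of 16 passed 2-fold, from Aim2 at -0.58 to Nlrp3 at 0.33, with a median of -0.14. The other probe of Nlrp3 gave no fold there. In the uterus 1 of 15 did: Ctsg went from -4.10 to -0.78 and was 9.97-fold higher, a log2 ratio of 3.32. The largest fall there was -0.57, for a probe of Mefv whose other probe was at -0.06. The median was -0.06. Elane was not well above background in the ovary or uterus.

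Genes that IL-1 is known to induce were 17. In the liver 1 of 9 evaluated probes was at least 2-fold lower, in the ovary 1 of 11 and in the uterus 1 of 12, and 0 were higher. Saa3, an acute-phase gene, was the lowest in the liver and the ovary. It went from 4.72 to 2.11 in the liver, a ratio of -2.61 or 6.12-fold lower, and from 0.14 to -4.13 in the ovary, a ratio of -4.27 or 19.3-fold lower. In the uterus Saa3 was at -0.76, and the lowest was Cxcl5, a chemokine that attracts neutrophils, at -1.23 or 2.34-fold lower. The largest rises were Ccl2 at 0.25 in the liver, Cxcl5 at 0.17 in the ovary and Nos2 at 0.35 in the uterus. The medians were -0.22, -0.07 and -0.05. Ccl20, Csf2, Cxcl2 and Il6 were not well above background in any tissue.

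The other marker lists bear on the tissues themselves. Endothelial markers had medians of -0.11 in the liver, -0.09 in the ovary and -0.08 in the uterus, and stromal markers -0.11, -0.01 and 0.15. Smooth muscle markers had -0.52, 0.08 and 0.01, and simple epithelium markers 0.15 in the liver and -0.06 in the ovary. In each of these lists 0 probes passed 2-fold in any tissue. Hepatocyte markers had 0 of 11 past 2-fold in the liver and the ovary, with medians of 0.04 and 0.29, and their summed signal was 386 on the control and 367 on the BHPF liver array. Ovary markers summed to 46.1 and 49.1 on the ovary arrays, led by Inha, with a median of 0.05 there, and uterus markers to 14.5 on each uterus array, led by Hoxa11 when the probes of each gene are averaged, with a median of 0.00. Outside their own tissue, 1 of 5 ovary probes passed 2-fold in the liver, Zp3 by a bound of 1.65, and 0 of 5 in the uterus. The ovary list had medians of 0.07 in the liver and 0.09 in the uterus, and the uterus list 0.70 in the liver and -0.08 in the ovary with 0 probes past 2-fold. Adipocyte markers had 0 of 6 past 2-fold in the liver, with a median of -0.16.

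For members with a span of at least 2 on the log2 scale among at least 3 arrays well above background, the genes of most like pattern over the 6 arrays were found among 20857 named probes. A level below the lowest one well above background on its array was first set to that limit, so that dim arrays, such as both liver arrays for Il1rl1, are alike by construction. Likeness is the mean absolute difference of these levels after centring, and Pearson r was taken over the same values. For Il1b these were Slc3a1 at 0.27 (r 0.99), Ppbp at 0.27 (r 0.99) and Cyp3a13 at 0.29 (r 0.98). For Il18 they were Nadsyn1 at 0.04, Spryd4 at 0.05 and Mocs1 at 0.06. All of these were higher in the liver than in both other tissues. For Il33 they were Hcar2 at 0.06, Ptprcap at 0.10 and Bend6 at 0.11, and for Il1rl1 they were Chl1 at 0.12, Sema3a at 0.14 and Kcng1 at 0.14.

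The members also share places in the genome. In the RefSeq gene order Il1a and Il1b are neighbours, Il1f9 and Il1f6 lie between Il1f8 and Il1f5, and Il1rn is next to Il1f10. The receptor genes Il1r2, Il1r1, Il1rl2, Il1rl1 and Il18r1 follow one another. Of these neighbours, Il1f6 and Il1f8 were well above background in the uterus and not in the liver, Il1rn in the liver alone, and Il1a in the liver alone beside Il1b in all 3 tissues.

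RefSeq promoters of the build GRCm38.p6, 300 bases each, were found for 9 of the 10 genes, 14 promoters in all. None was found for Il1f6, which was therefore not searched. Each was searched on both strands for 4 motifs. GGGANNTTC, bound by NF-kB, was in 1 of the 14, that of Il1f9, and in 3.94% of all 32851 promoters of that length. The AP-1 motif was searched as TGANTCA and was in 2, of Il1a and Il1rn, and in 7.81% of all. The half-site of nuclear receptors, part of the oestrogen response element, was searched as AGGTCA and was in 3, of Il1f9, Il1rn and Il1rl1, and in 16.3% of all. The TATA box was searched as TATAAA and was in 6 promoters, of Il1a, Il1b, Il18, Il1rn and Il33, and in 13.6% of all. A match describes the letters and is not a binding site.

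The promoters of Il1a, Il1b and Il1r2 are shown because these genes had the 3 lowest liver ratios among members measured on both arrays, and that of Il1f9 because it alone held GGGANNTTC. Il1a is at chr2:129309923-129310222 on the minus strand, Il1b at chr2:129371090-129371389 on the minus strand, Il1r2 at chr1:40085843-40086142 on the plus strand and Il1f9 at chr2:24186226-24186525 on the plus strand of GRCm38.p6. Each reads 5′ to 3′ along its gene, with capitals where a searched motif matched on either strand. The Il1r2 promoter held 0 matches.
Il1a: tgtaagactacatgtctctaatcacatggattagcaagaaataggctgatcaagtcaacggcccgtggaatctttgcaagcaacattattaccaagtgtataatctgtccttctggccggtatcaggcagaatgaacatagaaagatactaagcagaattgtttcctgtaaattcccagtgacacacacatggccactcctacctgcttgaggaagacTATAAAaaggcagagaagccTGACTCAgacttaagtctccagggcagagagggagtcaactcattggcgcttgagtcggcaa
Il1b: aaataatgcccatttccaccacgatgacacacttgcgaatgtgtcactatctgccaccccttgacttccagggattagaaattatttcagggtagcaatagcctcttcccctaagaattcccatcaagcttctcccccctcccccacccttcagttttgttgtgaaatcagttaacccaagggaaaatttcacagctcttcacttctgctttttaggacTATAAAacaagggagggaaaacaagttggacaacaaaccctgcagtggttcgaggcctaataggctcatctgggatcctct
Il1r2: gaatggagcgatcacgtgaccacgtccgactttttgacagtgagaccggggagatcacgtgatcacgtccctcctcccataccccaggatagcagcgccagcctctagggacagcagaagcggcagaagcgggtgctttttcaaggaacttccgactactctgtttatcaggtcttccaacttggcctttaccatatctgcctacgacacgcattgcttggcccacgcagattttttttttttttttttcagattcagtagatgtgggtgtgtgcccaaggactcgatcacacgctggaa
Il1f9: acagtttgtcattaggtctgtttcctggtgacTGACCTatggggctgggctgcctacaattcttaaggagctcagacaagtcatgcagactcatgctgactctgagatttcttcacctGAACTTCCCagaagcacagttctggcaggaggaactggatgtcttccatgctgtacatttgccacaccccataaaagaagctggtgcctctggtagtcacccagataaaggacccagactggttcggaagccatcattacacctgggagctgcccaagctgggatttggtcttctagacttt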

How the data were processed

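RNA of 6 pools was measured on 1-colour Agilent arrays, 1 per tissue and treatment. The authors deposited scanner files whose spot intensity had its background taken off and its spatial trend removed, made with Agilent Feature Extraction (9.1 per the labels, 11.5.1.1 per the file headers). A table of log2 values comes from the authors too. Each of its columns equalled the log2 intensity of 1 scanner array minus a constant near its 75th percentile, within 0.001 for 99.1% to 99.2% of the values. Its column medians were -1.25 (liver control), -1.17 (liver BHPF), -1.66 (ovary control), -1.64 (ovary BHPF), -1.22 (headed uterus control) and -1.23 (headed uterus BHPF). Its scale and direction were thus found, and the exact percentile stays unknown. The condition of each uterus array was taken from the label of its scanner file.

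After removal of control and outlier spots, each probe took the mean of its log2 spot signals, less the array's 75th percentile. A probe was well above background where more than 0.5 of its kept spots were. About 5 forms of that condition were tried after the files had been opened, and the one whose numbers of evaluated probes equalled earlier results of these data was kept. A probe dim on 1 array was compared with the higher of that array's lowest signal well above background and its own signal there, which gives a bound. With 1 array per group there was no test. The SD of a ratio joins the spot SDs of both arrays, from the probe's own spots where at least 5 were kept, otherwise from probes of like level.

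Symbols came from a RefSeq table of GRCm38.p6 through the probe's transcript accession, for 26762 of 55681 probes. The array design names the build mm9, so that table served for names and neighbours only, and promoter sequences carry their own build. Probes of 1 gene were kept apart, except that the summed signal of a marker list and its brightest gene used the mean intensity over the probes of each gene. Python 3.11.15 with numpy 2.4.6, pandas 2.3.3 and matplotlib 3.10.9, and R 4.3.3 with limma 3.58.1 were used. The calls were tested on simulated data with noise between spots alone and like limits on both arrays after scaling. The bounds were computed there without a pass mark, and the real limits were higher on the BHPF arrays.

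The members and the lists were chosen with earlier results of these data known. The lists cover other IL-1 family ligands, other receptors and binding proteins, signalling below the receptors, inflammasome and processing proteases, genes induced by IL-1, and markers of neutrophils, macrophages, stratified and simple epithelium, mast cells, T cells and innate lymphoid cells, endothelium, stroma, smooth muscle, adipocytes, hepatocytes, ovary and uterus. Named genes are all members, the largest rise and fall and each probe past 2-fold of every pathway list and tissue, and the 3 genes of most like pattern. That search was limited to named probes well above background on at least 3 arrays, a condition added after the rule was set. A marker list was given with its sums and its brightest and dim genes where at least 2 probes and at least 15% of those evaluated were past 2-fold one way. That share was lowered from 25% after the values had been seen, so that a list passes it shows nothing by itself. Marker genes beyond those were named after their values were seen.

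Alternatives covered the background correction (limma's normexp with offset 50 on the median signals, for lack of a mean signal column), the scale, the authors' table, the filter, the bounds, the outlier spots, the fold and genes in place of probes. Those chosen after seeing the data were the authors' table with its uterus columns exchanged, the liver share taken off the BHPF uterus array, and the condition of any kept spot.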

Additional observations from a re-analysis of the deposited data

Results flagged for a closer look

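The ratios of 1 member and of 1 gene of its pathway pointed in opposite directions in different tissues. For members the limit was a ratio beyond its spot SD, and for pathway genes a ratio past 2-fold. The log2 ratio of Il1rl1 was 0.78 in the ovary and -0.21 in the uterus. The other probes of Il1rl1, not well above background, had ratios of 0.76 and 0.94 in the ovary and 0.78 and 0.73 in the uterus. For Ctsg the log2 ratio was -2.88 in the liver, as a bound, and 3.32 in the uterus. With the authors' uterus columns as headed, Il1rl1 was at 0.21 and Ctsg at -3.32 in the uterus, and after normexp Il1rl1 was at 0.11 there, so that these directions were no longer opposite. Each rests on 1 array per group, and neither difference between tissues was tested.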

How the results depend on the processing

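Of 86 member counts recomputed under alternatives, 75 stayed within 1.5 times the reported count and 11 moved. Of 37 medians 31 stayed within the spot SD of a ratio and 6 moved, and of 215 single ratios 183 stayed, 30 moved and 2 past 2-fold turned sign. After normexp the lower probes were 1 in the liver, 0 in the ovary and 1 in the uterus. At a threshold of 4-fold they were 0, 0 and 1, and at 1.5-fold 1 ovarian probe was higher. With no filter on dim probes 1 was higher in the liver and 2 lower in the ovary. The liver median was -0.82 with the 50th percentile, -0.85 after quantile normalization, -0.27 with no filter, -0.66 with own signals in place of bounds, and -0.64 with any kept spot (chosen after seeing the data). With the authors' columns as headed, 0 uterine probes were lower and 2 higher, Il1r2 at 1.04 and Il1f6 at 3.45. With the liver share off (chosen after seeing the data) the uterine median was -0.42. Apart from the turned columns and the bounds, the cause of each move was not tested.

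Among all changed probes the higher share went from 85.0% in the liver to 56.6% with the 50th percentile and 62.8% after quantile normalization, and from 70.8% in the uterus to 25.4% with the liver share off, 29.2% with the columns as headed, 56.8% with own signals and 58.7% with any kept spot. In the ovary it was 53.5%, and 34.5% with own signals, 44.0% with no filter, 46.0% with probes above background on both arrays and 60.5% after normexp.

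Comparing the members' protein sequences was not run, for lack of a protein table among the references used. Signals near background limit Il1f9, Il1r2, Il1rn and Il1rl1, and Il1a, Il1rn and Il1f6 were measured in 1 tissue each. With 1 pool per group the variation between mice, the place on the slide and the treatment cannot be told apart.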
